A study of Mus musculus with 2 samples.

Results

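The genes described here encode the factors that start protein synthesis and carry it along the mRNA: the eukaryotic initiation factors Eif1 to Eif6 and the elongation factors Eef1 and Eef2. They were chosen by name, as the protein-coding genes whose symbols begin with Eif and a digit of 1 to 6 or with Eef and a digit of 1 or 2, leaving out the 4 kinases Eif2ak1 to Eif2ak4. This gave 63 of the 21474 protein-coding genes measured, and the rule uses no expression value. The series holds a single group, G1E-ER4 cells treated with 17beta-estradiol at 10 nM for 7 hours. G1E-ER4 is an immortalized mouse erythroid line, labelled male, without functional Gata1 of its own, into which a fusion of Gata1 with the ligand-binding part of the estrogen receptor was put back, so that the hormone turns Gata1 activity on. PolyA RNA was sequenced from both ends in 2 libraries, numbered as biological replicates 1 and 2 but citing a common sample record. Their spread may therefore be technical. No untreated cells were analysed here, and nothing below says what estradiol changed.

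Initiation begins when eIF2, loaded with GTP and the initiator tRNA, joins the small ribosomal subunit together with eIF1, eIF1A, eIF3 and eIF5. The eIF4F complex, made of the cap-binding eIF4E, the scaffold eIF4G and the helicase eIF4A, brings this subunit to the capped mRNA, along which it scans to a start codon. During elongation eEF1A delivers aminoacyl-tRNA, the eEF1B subunits recharge eEF1A with GTP, and eEF2 moves the ribosome by a codon. In red cell precursors this machinery serves the mass production of globin, and erythroid cells also hold an eIF2 kinase that couples initiation to heme supply.

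Replicate 1 held 59610963 expected counts, which are estimated fragments per gene, and replicate 2 held 44689404. Levels are given in TPM, the deposited abundance that corrects for transcript length and has the same total in each library. Detected means 1 TPM or more in each of the libraries. Of 11 erythroid markers 10 were detected, Slc4a1 being the exception, while 0 of 2 lymphoid and 0 of 4 stromal and endothelial markers were. Among markers of other blood cells, 2 of 4 myeloid, 3 of 4 megakaryocyte and 2 of 3 stem and progenitor genes were detected. The libraries differed from each other by far more than counting error, with a chi-square of 293 per degree of freedom over genes. In a bulk sample, fewer cells that express a gene and less of its RNA in each cell cannot be told apart.

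Of the 63 factor genes, 55 were detected (87.3%), against 38.3% of all protein-coding genes. The median mean TPM of the detected factors was 93.0, against 20.8 over all detected protein-coding genes. Their TPM summed to 18931 in replicate 1 and 19758 in replicate 2, which was 1.93% ± 0.0584 of all TPM (SD, n = 2). By counts they took 2.11% ± 0.225 of each library (SD, n = 2). Among detected factors the mean level ran between 4358 TPM for Eif5a and 2.91 TPM for Eif4a2. The 5 highest genes held 59.4% of the factors' TPM in replicate 1 and 62.1% in replicate 2. By this TPM, taken over all transcripts of a gene, Eif5a and Eif4g2 led in both libraries. The other places among the 5 went to Eef2, Eif4g1 and Eif1 in replicate 1 and to Eif4g1, Eif3f and Eif1ax in replicate 2. In transcripts annotated with the whole coding sequence, the 5 highest in both libraries were Eif5a, Eef2, Eif1, Eif3f and Eif4ebp1. Eif4g2 had 74.1 TPM in replicate 1 and 48.8 TPM in replicate 2 in such transcripts. Ranked by mean TPM, 46 of the 54 pairs of neighbours had overlapping library values, so the order is firm only over wide steps.

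**Figure D1:**
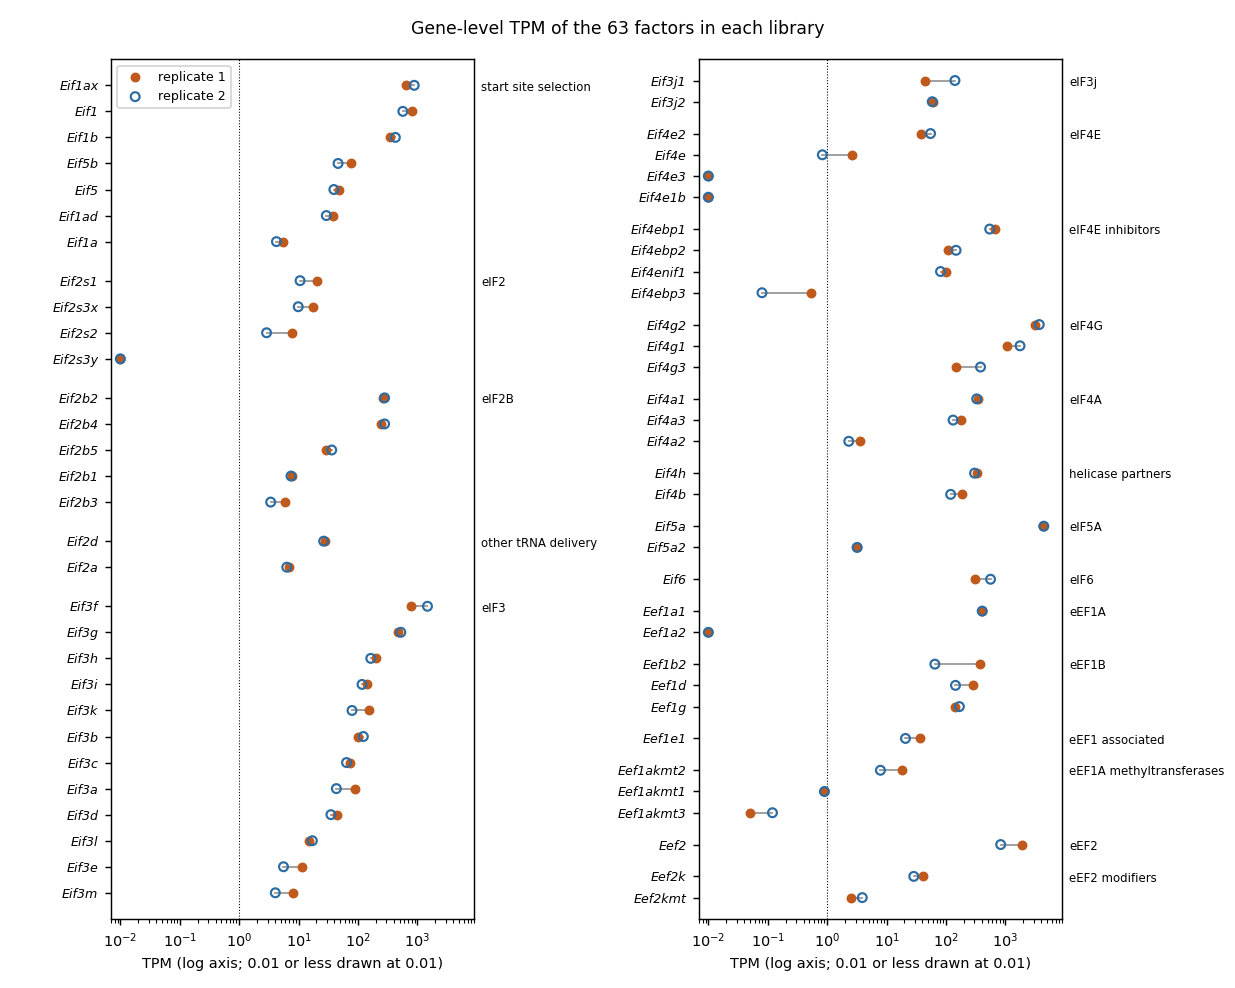
TPM of each of the 63 factors on a log axis, grouped by role, with a filled point for replicate 1 and an open point for replicate 2 joined by a line; the dotted line marks a TPM of 1. Eif5a lies at the right edge in both libraries, and Eef1a2, Eif2s3y, Eif4e1b and Eif4e3 lie at the left edge.

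The start codon is the site that eIF1, eIF1A and eIF5 inspect, so the start contexts of their own mRNAs are shown first. Beside them stand Eif3b and Eif4g2, with unusual contexts, and the elongation factors Eef2 and Eef1a1, with strong ones. Each line gives 30 bases, from 15 before the start codon, of the complete coding transcript that held most counts, as GENCODE M21 annotates it on GRCm38. Capitals mark the base 3 before the codon, the codon itself and the base after it, which in a strong context are A or G, then ATG, then G.
Eif1 (chr11:100320130, plus strand): aaggaatcgtatCgtATGTccgctatccag
Eif1b (chr9:120492811, plus strand): tcacactagtgtCgcATGTccactatccag
Eif1ax (chrX:159372400, plus strand): ccagtctttgcgGccATGCccaagaataaa
Eif5 (chr12:111539616, plus strand): cactaataagccAaaATGTctgtcaacgtc
Eif3b (chr5:140419361, plus strand): aagcagcgcgggCccATGCaggacgctgag
Eif4g2 (chr7:111081547, minus strand): tgtcaagccgccAaaGTGGagagtgcgatt
Eef2 (chr10:81176727, plus strand): tcgccatccgccAccATGGtgaacttcaca
Eef1a1 (chr9:78480654, minus strand): taattcaaagcaAaaATGGgaaaggaaaag
Each position is that of the first base of the start codon.

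Eif1, which holds the scanning ribosome open until a good start codon is reached, and its paralog Eif1b both lack the purine and the G. Eif3b, a scaffold subunit of eIF3, was the only other of the 55 detected factors without either base. These 3 genes were 5.45% of the detected factors, against 5.98% of 8041 detected protein-coding genes. Both bases were present in 28 factors (50.9%, against 47.8%), among them the elongation factors Eef2 and Eef1a1. A purine without the G stood in 22 factors (40.0%, against 38.9%), including Eif1ax and Eif5. Eif4g2, an eIF4G relative that lacks the eIF4E-binding region, was the only detected factor annotated with a start codon other than ATG, here GTG; over all detected genes that share was 0.124%.

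Many mRNAs of the translation machinery begin with a C and a run of pyrimidines, a 5′ terminal tract through which mTOR signalling controls their use. RefSeq starts on GRCm38.p6 were at hand for 47 of the factors. A C at the annotated start followed by at least 4 pyrimidines was found in 2 of them (4.26%), against 2.73% of 16317 protein-coding genes. That count depends on the annotated start being exact to the base. The windows of these 2 genes are shown from 10 bases before the annotated start, with the tract in capitals.
Eif3f (chr7:108934405-108934434, plus strand): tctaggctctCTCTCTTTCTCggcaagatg
Eif2s3x (chrX:94212632-94212661, minus strand): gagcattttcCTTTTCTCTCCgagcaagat
A looser measure was a run of at least 8 pyrimidines between 20 bases before and 30 after the annotated start. It was found in 14 of the 47 factors (29.8%, against 21.4% of all genes), Eef1a1 and Eef2 among them. Among detected genes alone it stood in 25.0% of 44 factors, against 20.8%. Over the 300 bases around the start, CACGTG stood in 12 of the 47 factors (25.5%, against 9.24% of all genes) and CCGGAAGT, on either strand, in 8 (17.0%, against 5.99%). Among detected genes alone the shares were 25.0% of 44 factors, against 12.8%, for CACGTG and 18.2%, against 11.8%, for CCGGAAGT. CACGTG reads the same on both strands, and neither motif overlaps the other in letters. These are descriptions of the windows and say nothing of binding.

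The factors that select the start site, grouped here with Eif5b and Eif1ad, were all detected, 7 of 7 in the group. Eif1 had 823 TPM in replicate 1 and 569 TPM in replicate 2. Eif1b had 340 TPM in replicate 1 and 425 TPM in replicate 2, so Eif1 was the higher paralog in both libraries, by 2.42 times in replicate 1 and 1.34 times in replicate 2. Eif1ax, the X-linked gene of the scanning factor eIF1A, stood at 641 TPM in replicate 1 and 883 TPM in replicate 2. Its autosomal copy Eif1a had 5.45 TPM in replicate 1 and 4.24 TPM in replicate 2. Eif5, which makes eIF2 hydrolyse its GTP, had 47.4 TPM in replicate 1 and 39.3 TPM in replicate 2. Eif5b, the GTPase that joins the large subunit, had 75.5 TPM in replicate 1 and 46.1 TPM in replicate 2 over all its transcripts. In transcripts annotated with the whole coding sequence Eif5b had 6.96 TPM in replicate 1 and 7.01 TPM in replicate 2, so its gene-level difference between the libraries was not seen there. Eif1ad, named for its eIF1A-like domain, had 38.0 TPM in replicate 1 and 29.3 TPM in replicate 2.

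The gene-level value of Eif1ax came almost wholly from a transcript that does not encode the protein. A retained-intron transcript of 416 bases held 99.8% of its TPM in replicate 1 and 99.9% in replicate 2. In complete coding transcripts, those annotated with the whole coding sequence, Eif1ax had 1.29 TPM in replicate 1 and 0.48 TPM in replicate 2. Eif1ax over Eif1a was 118 in replicate 1 and 208 in replicate 2 at the gene level, but 0.236 in replicate 1 and 0.113 in replicate 2 in complete coding transcripts. The short transcript carried 8430 counts in replicate 1 and 8479 counts in replicate 2, and 75.6% of its 31-base words also lie in the complete Eif1ax transcript, within its first 6.23%. Fragments from that stretch could be assigned to either transcript.

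Eif1ax was not alone in this. Of the 55 detected factors, 15 (27.3%) had less than 50% of their TPM in complete coding transcripts in both libraries, and the share over all detected protein-coding genes was 24.6%. They were Eif4g1, Eif4g2 and Eif4g3 of the cap-binding scaffold, Eif4a1 and Eif4a2 of the helicase, Eif2b2 and Eif2b4 of the eIF2 exchange factor, and Eif1ax, Eif3i, Eif4enif1, Eif5b, Eif6, Eef1b2, Eef2k and Eef2kmt. Complete coding transcripts held 66.5% of the detected factors' TPM in replicate 1 and 58.5% in replicate 2. Coding transcripts annotated with a missing end held a further 19.8% in replicate 1 and 22.6% in replicate 2. By counts, which are not divided by length, the complete coding share was 84.3% in replicate 1 and 80.8% in replicate 2. The same count over a shorter transcript makes a larger TPM, so the coding value is given beside the gene-level TPM of these 15 genes. Counted by fragments in place of TPM, 8 genes had less than 50% in complete coding transcripts in both libraries. The share over all genes was not taken by fragments, so that count has nothing to be set against.

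**Figure D2:**
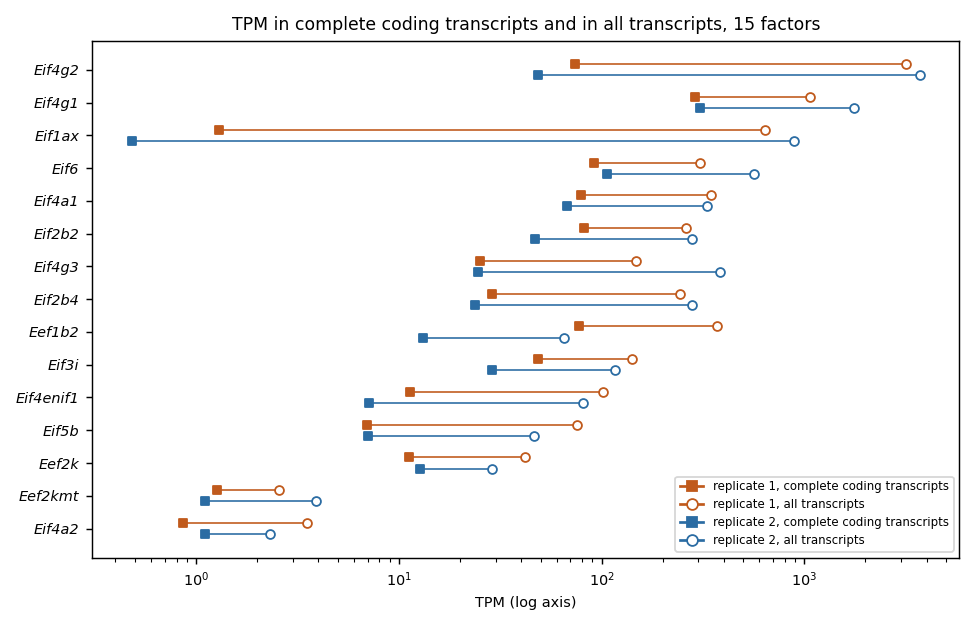
TPM on a log axis for the 15 factors with less than 50% of TPM in complete coding transcripts, with squares for complete coding transcripts, open circles for all transcripts and a line for the gap, in replicate 1 above replicate 2 for each gene. The gap is widest for Eif1ax and Eif4g2. Complete coding transcripts are a part of all transcripts, so the side of the gap is fixed in advance.

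The heterotrimer eIF2, which carries the initiator tRNA, had all 3 of its core subunits below the median of the detected factors. Eif2s1, the alpha subunit that stress kinases phosphorylate, had 20.8 TPM in replicate 1 and 10.6 TPM in replicate 2. Eif2s3x, the X-linked gene of the GTP-binding gamma subunit, had 17.3 TPM in replicate 1 and 9.86 TPM in replicate 2. The beta subunit gene Eif2s2 had 7.74 TPM in replicate 1 and 2.89 TPM in replicate 2. The order of the 3 subunits was alike in both libraries, with Eif2s1 over Eif2s2 at 2.69 times in replicate 1 and 3.66 times in replicate 2, and all 3 were higher in replicate 1. Eif2s3y, the Y-linked gamma gene, had 0 counts in both libraries. A count of 0 in a library still allows up to 3 counts, for counting error only. The other 3 Y-linked genes read, Ddx3y, Kdm5d and Uty, were also at 0 counts, although the line is labelled male. What lies behind these zeros was not tested.

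The exchange factor eIF2B, which reloads eIF2 with GTP and is held inactive by phosphorylated eIF2, was detected in all 5 subunits with levels far apart. Eif2b2, the beta subunit gene, had 261 TPM in replicate 1 and 280 TPM in replicate 2. Eif2b4, the delta subunit gene, had 243 TPM in replicate 1 and 280 TPM in replicate 2. These genes led in both libraries, and Eif2b4 was the higher of them in replicate 2 alone. The catalytic epsilon subunit gene Eif2b5 followed with 29.0 TPM in replicate 1 and 36.1 TPM in replicate 2. Eif2b1 of the alpha subunit had 7.80 TPM in replicate 1 and 7.46 TPM in replicate 2, and Eif2b3 of the gamma subunit had 5.81 TPM in replicate 1 and 3.39 TPM in replicate 2. The highest mean was 58.8 times the lowest. Both leading genes rested on short transcripts, a retained-intron transcript of 338 bases for Eif2b2 and, for Eif2b4, a transcript of 512 bases that GENCODE M21 does not hold. In complete coding transcripts Eif2b2 had 82.1 TPM in replicate 1 and 47.0 TPM in replicate 2, and Eif2b4 had 28.7 TPM in replicate 1 and 23.8 TPM in replicate 2. The coding values thus spanned 14.7 times over the complex, with Eif2b2 still the highest in both libraries. The alternative tRNA carriers Eif2d and Eif2a averaged 27.3 and 6.62 TPM.

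The scaffold complex eIF3, the largest initiation factor, was detected in all 12 of its core subunits. Eif3f (chr7:108934432 at its start codon) was the highest, with 768 TPM in replicate 1 and 1477 TPM in replicate 2. Eif3m was the lowest, with 8.05 TPM in replicate 1 and 4.06 TPM in replicate 2. The highest subunit was thus 95.4 times the lowest in replicate 1 and 364 times in replicate 2. Eif3g, which binds RNA, came next to Eif3f with 480 TPM in replicate 1 and 525 TPM in replicate 2, and Eif3h had 201 TPM in replicate 1 and 164 TPM in replicate 2. These 3 held the top places, and Eif3d, Eif3l, Eif3e and Eif3m the lowest 4, in the same order in both libraries. The 5 in between, Eif3k, Eif3i, Eif3b, Eif3a and Eif3c, lay between 43.3 and 150 TPM and changed places. Eif3a, the largest subunit and a base of the complex, had 87.9 TPM in replicate 1 and 43.3 TPM in replicate 2. Eif3i had 140 TPM in replicate 1 and 117 TPM in replicate 2, of which complete coding transcripts held 48.3 TPM in replicate 1 and 28.7 TPM in replicate 2. Apart from Eif3i, each core subunit had over 90% of its TPM in complete coding transcripts.

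Eif3j, a loosely attached subunit at the mRNA entry channel, is encoded in the mouse by the close copies Eif3j1 and Eif3j2. Eif3j1 had 44.4 TPM in replicate 1 and 141 TPM in replicate 2, while Eif3j2 had 60.6 TPM in replicate 1 and 58.7 TPM in replicate 2. Eif3j1 over Eif3j2 was 0.733 in replicate 1 and 2.41 in replicate 2, so the libraries disagreed on which copy was higher. Of the 31-base words of Eif3j2 transcripts, 94.0% also occur in Eif3j1 transcripts, and the division of counts between the copies is uncertain. A processed transcript of Eif3j1, 594 bases long, held 48.7% of its TPM in replicate 1 and 97.3% in replicate 2. In complete coding transcripts Eif3j1 was the lower copy in both libraries, at 0.376 times Eif3j2 in replicate 1 and 0.0647 times in replicate 2.

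Within eIF4F, the mRNA of the cap-binding subunit was below that of 3 of its 4 inhibitors, Eif4ebp3 being the exception. Eif4e had 2.60 TPM in replicate 1 and 0.83 TPM in replicate 2, from 359 counts in replicate 1 and 80.8 counts in replicate 2, and so missed the detection limit in replicate 2. Eif4e2, a homologue linked to translational repression, had 37.5 TPM in replicate 1 and 54.9 TPM in replicate 2. Eif4e2 over Eif4e was 14.4 in replicate 1 and 66.1 in replicate 2, so the homologue was the higher gene in both libraries. Eif4e1b, an oocyte form, had 0 counts in both libraries, and Eif4e3 had 0 counts in replicate 1 and 1 count in replicate 2. An annotated pseudogene that shares 31-base words with Eif4e took 0.942% of their joint counts in replicate 1 and 14.1% in replicate 2. Eif4ebp1, which sequesters eIF4E until mTOR phosphorylates it, had 670 TPM in replicate 1 and 544 TPM in replicate 2. Its level was 258 times that of Eif4e in replicate 1 and 656 times in replicate 2, with both genes higher in replicate 1. Eif4ebp2 had 106 TPM in replicate 1 and 148 TPM in replicate 2, so Eif4ebp1 exceeded it by 6.30 times in replicate 1 and 3.68 times in replicate 2. Eif4ebp3 was not detected, with 15.9 counts in replicate 1 and 1.76 counts in replicate 2. Eif4enif1, the transporter that takes eIF4E into the nucleus, had 101 TPM in replicate 1 and 81.0 TPM in replicate 2, of which complete coding transcripts held 11.3 TPM in replicate 1 and 7.14 TPM in replicate 2.

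The 3 scaffold genes all depended on the choice of transcripts. Eif4g2, on the minus strand of chromosome 7, had 3164 TPM in replicate 1 and 3713 TPM in replicate 2. The canonical scaffold Eif4g1 had 1064 TPM in replicate 1 and 1761 TPM in replicate 2, so Eif4g2 was 2.98 times Eif4g1 in replicate 1 and 2.11 times in replicate 2. A coding transcript of Eif4g2 with a missing end, 742 bases long, held 94.8% of its TPM in replicate 1 and 95.5% in replicate 2. It carried 89149 counts in replicate 1 and 74904 counts in replicate 2, and 96.5% of its 31-base words lie in the first 10.2% of the complete transcript, which has 7995 bases in GENCODE M21. In complete coding transcripts Eif4g2 had 74.1 TPM in replicate 1 and 48.8 TPM in replicate 2, and Eif4g1 had 288 TPM in replicate 1 and 304 TPM in replicate 2. Eif4g2 over Eif4g1 was then 0.257 in replicate 1 and 0.160 in replicate 2, and in gene counts 0.847 in replicate 1 and 0.834 in replicate 2. The order of these paralogs therefore turns with the measure in both libraries. Eif4g3 had 147 TPM in replicate 1 and 381 TPM in replicate 2, a difference that its coding transcripts, at 25.2 TPM in replicate 1 and 24.5 TPM in replicate 2, did not show. Short processed transcripts of Eif4g1, 626 bases long, and of Eif4g3, 489 bases long, held larger shares in replicate 2. For Eif4g1 that share of TPM was 42.7% in replicate 1 and 66.7% in replicate 2. For Eif4g3 it was 37.2% in replicate 1 and 52.1% in replicate 2. By counts it was 8.36% in replicate 1 and 19.6% in replicate 2 for Eif4g1. For Eif4g3 it was 8.31% in replicate 1 and 24.8% in replicate 2 by counts. Of their 31-base words, 84.4% for Eif4g1 and 89.8% for Eif4g3 also lie in the complete transcript. Such fragments could be assigned to either transcript.

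Of the helicases that unwind leader sequences, Eif4a1 led with 346 TPM in replicate 1 and 329 TPM in replicate 2. Eif4a2 was the lowest detected factor by mean level, with 3.51 TPM in replicate 1 and 2.31 TPM in replicate 2. Eif4a1 over Eif4a2 was 98.6 in replicate 1 and 142 in replicate 2. Eif4a3, which serves the exon junction complex and not cap-dependent initiation, had 182 TPM in replicate 1 and 132 TPM in replicate 2. Eif4a1 was 1.91 times Eif4a3 in replicate 1 and 2.50 times in replicate 2, but 0.574 times in replicate 1 and 0.964 times in replicate 2 in complete coding transcripts. On that scale Eif4a1 had 79.4 TPM in replicate 1 and 67.5 TPM in replicate 2, and Eif4a2 had 0.86 TPM in replicate 1 and 1.10 TPM in replicate 2. The RNA-binding partners of the helicase had all of their TPM in complete coding transcripts. Eif4h had 335 TPM in replicate 1 and 303 TPM in replicate 2, and Eif4b had 187 TPM in replicate 1 and 120 TPM in replicate 2.

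Eif5a, on chromosome 11, was the most abundant factor. It encodes a protein that carries the rare amino acid hypusine and helps ribosomes past difficult stretches and through termination. It had 4287 TPM in replicate 1 and 4428 TPM in replicate 2, a mean of 4358 ± 100 TPM (SD, n = 2), all but a trace of it in complete coding transcripts. Its paralog Eif5a2 had 3.18 TPM in replicate 1 and 3.19 TPM in replicate 2. Eif5a was 1348 times Eif5a2 in replicate 1 and 1388 times in replicate 2, the widest of the 13 paralog and partner ratios in both libraries. Eif6, which keeps the large subunit from joining too early, had 305 TPM in replicate 1 and 562 TPM in replicate 2. A coding transcript of Eif6 with a missing end, 373 bases long, held 69.7% of that in replicate 1 and 80.1% in replicate 2, and its complete coding value was 92.1 TPM in replicate 1 and 107 TPM in replicate 2.

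Among elongation factors, eEF2 exceeded eEF1A in mRNA level. Eef2, the translocase gene on chromosome 10, had 1903 TPM in replicate 1 and 833 TPM in replicate 2. Eef1a1, which delivers the tRNAs, had 409 TPM in replicate 1 and 407 TPM in replicate 2. Eef2 over Eef1a1 was 4.66 in replicate 1 and 2.05 in replicate 2. Eef1a2, the form of neurons and muscle, had 0 counts in both libraries. Of 4 neuron and muscle markers only Tubb3 was detected, at 1.53 TPM in replicate 1 and 1.48 TPM in replicate 2. Annotated pseudogenes that share words with Eef1a1 took 0.300% of the joint counts in replicate 1 and 0.434% in replicate 2.

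The eEF1B subunits, which exchange GDP for GTP on eEF1A, changed order between the libraries. Eef1b2 had 370 TPM in replicate 1 and 65.0 TPM in replicate 2. Eef1d had 285 TPM in replicate 1 and 145 TPM in replicate 2, and the structural subunit gene Eef1g had 139 TPM in replicate 1 and 168 TPM in replicate 2. Eef1b2 was thus the highest of the 3 in replicate 1 and the lowest in replicate 2. In complete coding transcripts Eef1b2 had 77.0 TPM in replicate 1 and 13.1 TPM in replicate 2 and was the lowest of the 3 in both libraries. Eef1e1, a small protein of the tRNA synthetase complex, had 36.9 TPM in replicate 1 and 20.8 TPM in replicate 2. Of the methyltransferases of eEF1A, Eef1akmt2 was detected, with 18.5 TPM in replicate 1 and 7.88 TPM in replicate 2. Eef1akmt1 missed the limit with 0.87 TPM in replicate 1 and 0.90 TPM in replicate 2, and Eef1akmt3 had 7 counts in replicate 1 and 11 counts in replicate 2. Eef2k, the kinase that inhibits eEF2, had 41.6 TPM in replicate 1 and 28.7 TPM in replicate 2, of which complete coding transcripts held 11.2 TPM in replicate 1 and 12.7 TPM in replicate 2. Eef2kmt, a methyltransferase of eEF2, had 2.56 TPM in replicate 1 and 3.90 TPM in replicate 2, of which complete coding transcripts held 1.27 TPM in replicate 1 and 1.10 TPM in replicate 2.

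Differences between the libraries were measured as the log2 ratio of replicate 1 over replicate 2 from expected counts, scaled by TMM, a method that equalizes the bulk of genes, and with a prior count of 0.5. With a single library on each side the ratio has no error of its own and was not tested. Of the 59 factors with at least 10 counts over both libraries, 8 differed by at least 2-fold (13.6%), against 11.3% of 10133 protein-coding genes. Higher in replicate 1 were 6 of them (10.2%, against 8.59%) and higher in replicate 2 were 2 (3.39%, against 2.68%), shares near those of all genes. The median log2 ratio over the factors was 0.16, against 0.02 over all protein-coding genes, with 34 factors above 0 and 25 below. With the trend with GC content over all genes removed, an alternative added after seeing the data, the median over 58 factors was 0.06, and 8 factors were past 2-fold. The share of all genes past 2-fold was not taken after that removal.

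Eef1b2 stood out most, with 15123 counts in replicate 1 and 1742 counts in replicate 2, a log2 ratio of 2.49. On the scale of log2(TPM + 1), used for every log2 ratio of TPM between the libraries, its ratio was as large, at 2.49, and its complete coding transcripts, given above, were also higher in replicate 1. Eif2s2 had 838 counts in replicate 1 and 180 counts in replicate 2, a log2 ratio of 1.59. Eif4e followed at 1.52. Eef1akmt2 had 530 counts in replicate 1 and 152 counts in replicate 2, a log2 ratio of 1.17. Eef2, with 283789 counts in replicate 1 and 86933 counts in replicate 2, had a log2 ratio of 1.08. Eif4ebp3 reached 2.31 on the few counts given above. Higher in replicate 2 were Eif3f, with 91756 counts in replicate 1 and 123663 counts in replicate 2 and a log2 ratio of -1.06, and Eef1akmt3, at -1.21 on few counts. The genes that passed the 2-fold limit most narrowly were Eif3f at -1.06 and Eef2 at 1.08, and those that fell short of it most narrowly were Eif3e at 0.94 and Eif3a at 0.91.

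**Figure D3:**
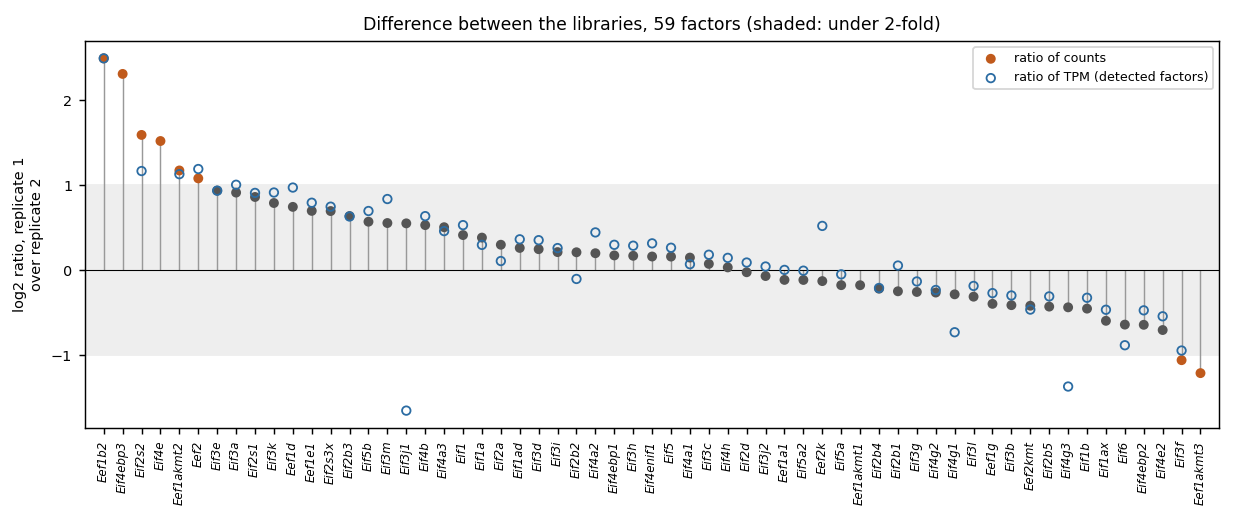
Log2 ratio of replicate 1 over replicate 2 for the 59 factors with at least 10 counts, ordered by the ratio of counts (filled, coloured where past 2-fold), with the ratio of TPM as open circles for detected factors and the range under 2-fold shaded. Eef1b2 lies highest in both measures, while Eif3j1 lies at 0.55 by counts and -1.65 by TPM.

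In TPM, 7 of the 55 detected factors differed by at least 2-fold (12.7%, against 7.69% of detected protein-coding genes). Eef1b2, Eif2s2, Eef1akmt2 and Eef2 were past the limit by both measures. Eif3a, Eif3j1 and Eif4g3 passed it in TPM only. Eif3j1 was higher in replicate 1 by counts, with a log2 ratio of 0.55, and higher in replicate 2 by TPM, with a log2 ratio of -1.65. Eif4g3 had a log2 ratio of -0.43 by counts and -1.37 by TPM. Both belong to the 5 factors with a mean TPM of at least 10 whose leading transcript's share moved by 20 percentage points or more between the libraries, the others being Eef2k, Eif4a3 and Eif4g1. The authors' own intervals belong to their posterior mean TPM, another deposited estimate of the level, and cover the uncertainty of assigning fragments in a library. They lay higher in replicate 1 without overlap for 28 of the 55 detected factors, higher in replicate 2 for 18, and overlapped for 9. Neither these counts nor the 5 factors above were set beside the same count over all genes. They cannot be read as particular to the factors.

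The factors' levels and ratios both moved with base composition. GC content was read from the transcript with most counts, for 54 detected factors. Across these factors, which share both libraries, log2 mean TPM had Pearson's r of 0.58 and Spearman's rho of 0.57 with GC. Over 8149 protein-coding genes the same values were 0.37 and 0.38. For some factors the transcript with most counts was short and lacked a complete coding sequence. Examples are Eif6 (373 bases), Eif1ax (416 bases) and Eif4g2 (742 bases), where both the GC content and most of the gene-level TPM come from that transcript. The 18 factors of highest GC had a median TPM of 243, and the 18 of lowest GC had a median of 13.4. Among the low-GC factors were all 3 detected eIF2 genes as well as Eif1a, Eif3e, Eif3m, Eif4a2 and Eif5a2. The same 18 also held factors of higher level, Eef1a1 at a mean of 408 TPM and Eif3j1, Eif3a, Eif5b, Eif3j2 and Eif5 between 43.4 and 93.0 TPM. The rest were Eef1e1, Eef1akmt2, Eif2a and Eif2b3, between 4.60 and 28.8 TPM. The log2 ratio of replicate 1 over replicate 2 went the other way, with r of -0.41 and rho of -0.45 over the factors and -0.26 for both over all genes. Its median was -0.07 in the 18 factors of highest GC and 0.56 in the 18 of lowest GC. The 8 factors past 2-fold were the same genes with the GC trend over all genes removed. What part base composition had in the levels was not tested.

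**Figure D4:**
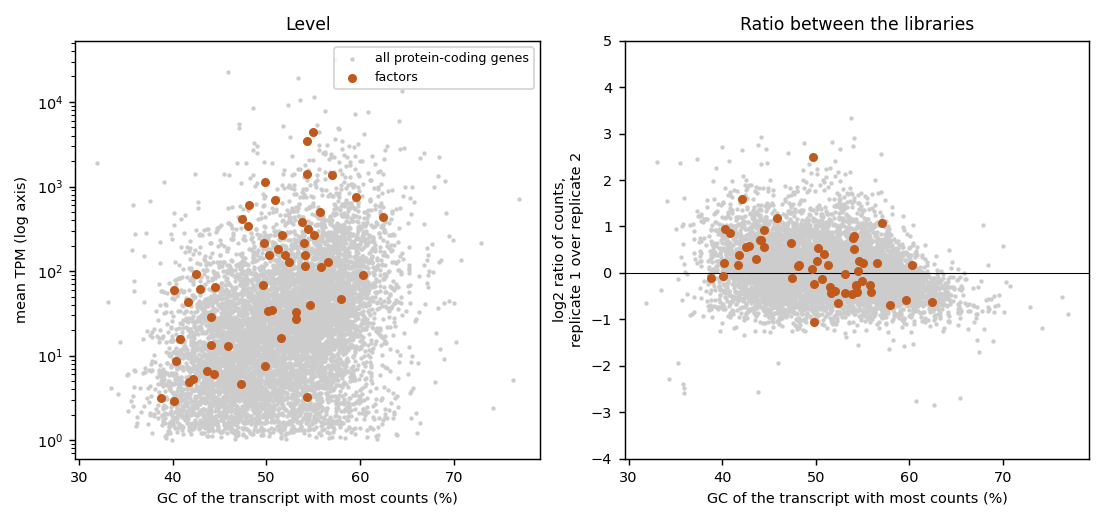
Mean TPM on a log axis (left) and the log2 ratio of counts of replicate 1 over replicate 2 (right) against the GC content of the transcript with most counts, for 54 factors (large points) over 8149 protein-coding genes (small grey points). Factors of higher GC sit at higher TPM and at lower ratios.

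Genes that work beside the factors were read from a list of 50, of which 49 were matched and 45 detected. The poly(A)-binding proteins, which bridge the mRNA tail to eIF4G, were the most abundant. Pabpc1 had 1478 TPM in replicate 1 and 2280 TPM in replicate 2, and Pabpc4 had 1477 TPM in replicate 1 and 2075 TPM in replicate 2. In complete coding transcripts Pabpc1 had 1474 TPM in replicate 1 and 2277 TPM in replicate 2. Pabpc4 had only 336 TPM in replicate 1 and 464 TPM in replicate 2 there. The release factor gene Gspt1 came next by mean level, with 225 TPM in replicate 1 and 423 TPM in replicate 2, though Ppp1r15a, Dohh and Mknk2 were above it in replicate 1. Of 48 listed genes with enough counts, 6 were at least 2-fold higher in replicate 1 (12.5%, against 8.59% of all protein-coding genes) and 0 in replicate 2 (against 2.68%). These were the helicase Ddx3x, the ribosome recycling factor Abce1, the eIF4A inhibitor Pdcd4, the ribosome rescue factor Hbs1l, the mitochondrial initiation factor Mtif3, and Mcts1, which recycles small subunits. Their log2 ratios lay between 1.01 for Mtif3 and 1.68 for Mcts1, which had 41 counts in replicate 1 and 8 counts in replicate 2. The median log2 ratio over the list was -0.01.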

How the data were processed

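PolyA RNA-seq of 2 libraries of 1 group was analysed, and no groups were compared. For each library the authors deposited expected counts, which are estimated counts per gene and transcript that need not be whole and are not normalized. They also deposited TPM, scaled by effective length to a common total, and a posterior mean TPM with its interval bounds. Per the submitters' processing notes the build was mm10 with GENCODE M4, and which aligner and quantifier were used is not given in the sources used here. Names, classes and positions came from GENCODE M21 on the same assembly, which matched 42462 of 43346 gene rows. The other 884 rows held 0.248% of the counts of replicate 1 and 0.257% of those of replicate 2. A further 26345 rows named no gene and held 2 counts in replicate 1 and 0 in replicate 2. Of 321 transcripts of the factors, 315 were in M21. A symbol that fits the rule, Eef1akmt4, was not among the rows and is not analysed here.

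Counts were scaled with edgeR 4.0.16 (TMM) in R 4.3.3 and taken as log2 ratios with a prior count of 0.5. DESeq2 1.42.0 size factors were an alternative. No test was run, since each ratio sets 1 library against 1. The scaling was also run on simulated counts with known changes, drawn with counting error alone. The libraries differed by far more than counting error, so that run says nothing of the error of the ratios here. Complete coding transcripts are the protein-coding class of M21 without a tag for a missing end. Every factor was accounted for, and full values were required for the highest and lowest subunit of each complex, both sides of each paralog set, Eef2k, Eif6 and every gene past 2-fold or at 0 counts. The factors were taken by the name rule, but that topic and the gene lists were picked with earlier results of these data known. The split by coding transcripts was added after seeing the data, as was the removal of the GC trend (medians in 20 bins of GC). Errors are the SD over the libraries, which measures their spread alone. Whether counting used strand is not stated, so reads of overlapping antisense genes may not be told apart.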

Additional observations from a re-analysis of the deposited data

How the results depend on the processing

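With 2 libraries no error of a ratio between them can be had, and depth limits the low factors most (Eif4ebp3, Eef1akmt3, Eif4e3). No paired analysis was possible because the series holds a single group. Of 155 values recomputed under other settings, 7 changed side, all of them paralog ratios. Counts of genes, summed TPM, spreads within a complex and transcript shares could not change side, so 155 is not the base for the 7. A further 26 values moved past the limit set for them, which for most values was the spread of the libraries. The spread over 2 libraries is too coarse a measure for the others to be read as stable. The number of detected factors lay between 48 and 57 over its settings.

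By library total alone, the median log2 ratio over the factors was 0.37, and that over all protein-coding genes was 0.23, against 0.02 with TMM. Leaving out replicate 1 or replicate 2, the summed TPM lay between 18931 and 19758, and it was 12078 in complete coding transcripts. The median share of the leading transcript was 92.7% by TPM and 89.8% by counts. Counted by fragments, 8 factors and not 15 had under 50% in complete coding transcripts, with no such count over all genes. Paralog ratios that crossed 1 were Eif1ax over Eif1a, 0.175 in complete coding transcripts, and Eif4a1 over Eif4a3, 0.769 there. Eif4g2 over Eif4g1 was 0.841 by counts and 0.209 in complete coding transcripts. Eif3j1 over Eif3j2 was 0.792 by counts and 0.220 in complete coding transcripts, and lay between 0.733 and 2.41 when either library was left out. The cause of these turns was not tested beyond the transcript shares given above.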
